A study of Mus musculus with 14 samples.

Results

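The 7 genes described here mark D1-type medium spiny neurons, the projection neurons of the striatum that carry the D1 dopamine receptor. They were chosen by name, as the rows whose gene name is exactly Drd1a, Tac1, Pdyn, Isl1, Chrm4, Ebf1 or Sfxn1, and all 7 were found among the 13130 genes of the authors' deposited table. The study sequenced messenger RNA of the nucleus accumbens, the ventral part of the striatum, from C57BL/6 mice that all carry TET1 loxp/loxp alleles. In 7 mice the region was injected with AAV-Cre, a virus that delivers the recombinase which removes DNA between loxP sites, and in 7 control mice with AAV-GFP, which delivers a fluorescent protein and leaves the alleles intact. RNA was taken 4 weeks after injection, with 1 library per mouse. The sources used here do not name the viral promoter, the cells infected or the sex and age of the mice.

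Medium spiny neurons make up most neurons of the striatum and fall into a pair of classes. The D1 class responds to dopamine through a receptor that raises cyclic AMP, releases the peptides substance P and dynorphin along with GABA, and projects to the midbrain. The D2 class responds through a receptor that lowers cyclic AMP, and releases enkephalin. In the nucleus accumbens the D1 class is known for its part in reward, and dynorphin for its part in aversive responses to stress.

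The authors' deposited table gives, per gene, a log2 fold change of AAV-Cre over AAV-GFP and a mean level over the 14 samples. It also gives the result of a t test, read here as moderated. It holds no value per mouse, so levels in each group, SDs and single mice cannot be shown, and library depth is unknown. Standard errors (SE) and 95% limits given below were derived from its fold changes and test statistics. Tet1 itself had a log2 fold change of -0.13 with an SE of 0.11 in the authors' deposited table (adjusted p = 0.921), a value over the whole transcript that does not measure recombination, and Tet2 had -0.06 (SE 0.08). In bulk tissue, fewer cells of a type and less RNA per cell cannot be told apart, and this holds for every value below.

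No D1-type gene passed the test between AAV-Cre and AAV-GFP. At an adjusted p under 0.05 the count was 0 of 7 members and 0% of all genes in the authors' deposited table. At an unadjusted p under 0.05 it was again 0 of 7, against 5.15% of all genes. The log2 fold changes of the 7 members ran from -0.06 to 0.23, with a median of 0.05, beside a median of 0.02 over all genes. Of the members, 6 stood above 0 and 1 below, while 59.1% of all genes stood above 0. For 1 of those 6, Sfxn1, the value was so small that it fell below 0 once the median of all genes was subtracted.

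Although none passed, the limits say how large a change these libraries leave room for. For all 7 members the 95% limits lay inside a 1.5-fold change in either direction, as they did for 89.2% of all genes. This bound was not planned before the data were seen. Inside a 1.2-fold change lay the limits of 1 member, Sfxn1, against 58.2% of all genes.

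**Figure D1:**
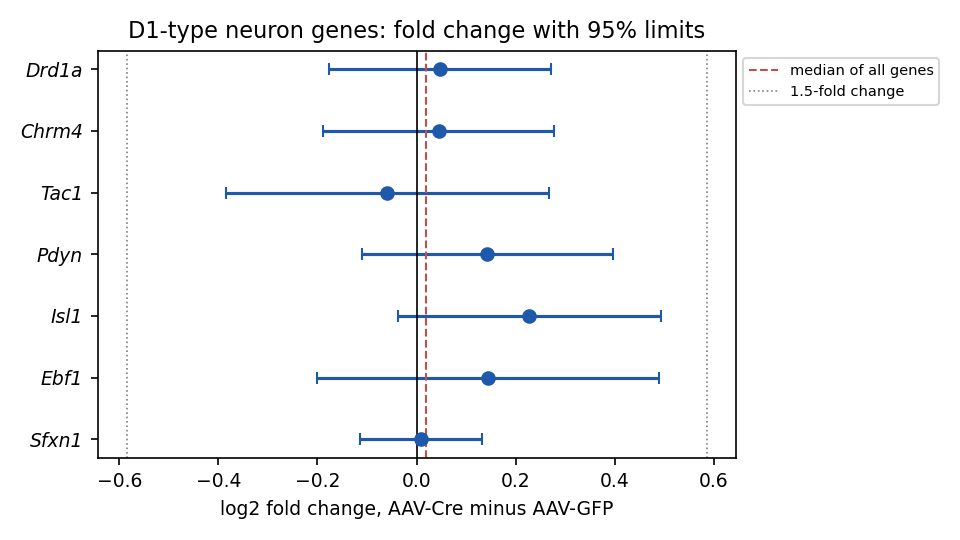
Log2 fold change of AAV-Cre minus AAV-GFP (x axis) for the 7 D1-type genes (rows), as points with 95% limits; the dashed line is the median of all 13130 genes (0.02) and the dotted lines are a 1.5-fold change either way. Every set of limits includes 0 and stays between the dotted lines, and Tac1 is the only point below 0.

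Because Tet1 encodes an enzyme that oxidises 5-methylcytosine, a base found mainly in CpG dinucleotides, the CpG content of the members' promoters is shown before their values. The windows printed are those of Isl1 and Pdyn, which held the most and the fewest CpGs among the members' first annotated starts. Each is the 250 bases before that start in RefSeq on GRCm38.p6, written 5′ to 3′ on the gene's own strand, with CpG dinucleotides in capitals. The Isl1 window is chr13:116309689-116309938 on the minus strand and the Pdyn window is chr2:129699939-129700188 on the minus strand.
Isl1: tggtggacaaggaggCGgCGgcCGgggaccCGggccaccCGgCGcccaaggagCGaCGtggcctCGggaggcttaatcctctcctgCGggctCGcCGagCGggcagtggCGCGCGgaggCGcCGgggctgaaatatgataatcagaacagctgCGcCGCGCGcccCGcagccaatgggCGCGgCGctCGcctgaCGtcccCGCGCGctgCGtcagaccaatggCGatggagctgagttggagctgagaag
Pdyn: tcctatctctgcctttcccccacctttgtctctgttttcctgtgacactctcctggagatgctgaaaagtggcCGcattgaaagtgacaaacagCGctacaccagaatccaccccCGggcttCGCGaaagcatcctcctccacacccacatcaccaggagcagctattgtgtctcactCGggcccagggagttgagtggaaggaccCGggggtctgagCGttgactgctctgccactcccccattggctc

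The Isl1 window held 33 CpGs, more than 96.0% of the 32851 promoter windows of the same length in the RefSeq table, whose median was 6. The Pdyn window held 8, more than 57.0% of them. The first starts of the other members fell between these: 26 CpGs for Chrm4, 19 for Sfxn1, 17 for Tac1, 15 for Drd1a and 9 for Ebf1. Drd1a, Pdyn and Ebf1 each had another annotated start, with 5, 4 and 14 CpGs, and the table of fold changes does not say which start was in use.

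The letters TGACG, the core of the cyclic AMP response element, were searched on both strands, with matches inside a longer palindrome counted on each strand. They stood in 2 of the members' 10 windows, those of Isl1 and Tac1, each with 2 matches, and in 17.8% of all promoter windows. Such a match is a description of the sequence and not a binding site. Methylation was not measured here.

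The receptors come first. Drd1a, listed as Drd1 in newer annotation, encodes the D1 dopamine receptor that defines the class. Its log2 fold change was 0.05 with an SE of 0.11 in the authors' deposited table, a level 3.35% higher in AAV-Cre with 95% limits of -11.5% to 20.7% (adjusted p = 0.969). The gene, ENSMUSG00000021478.5, is at chromosome 13, 54051183 to 54055705, minus strand (GRCm38).

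Chrm4 encodes the M4 muscarinic acetylcholine receptor, which lowers cyclic AMP in D1-type neurons and thereby opposes the D1 receptor. It had a log2 fold change of 0.04 with an SE of 0.11 in the authors' deposited table, 3.16% higher in AAV-Cre with limits of -12.2% to 21.2% (adjusted p = 0.971). The gene, ENSMUSG00000040495.4, is at chromosome 2, 91927249 to 91928688, plus strand. For both receptors the SE was larger than the difference itself.

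The peptide precursors follow. Tac1, whose product is cut into substance P and neurokinin A, was the only member with a negative value. Its log2 fold change was -0.06 with an SE of 0.15 in the authors' deposited table, which is -4.03% in AAV-Cre with limits of -23.4% to 20.3% (adjusted p = 0.973). Pdyn, whose product is cut into the dynorphins, had a log2 fold change of 0.14 with an SE of 0.12 there, 10.4% higher in AAV-Cre with limits of -7.39% to 31.5% (adjusted p = 0.921). The values of these 2 precursors have opposite signs, and their limits overlap widely. Tac1, ENSMUSG00000061762.8, is at chromosome 6, 7554879 to 7565834, plus strand, and Pdyn, ENSMUSG00000027400.7, at chromosome 2, 129686565 to 129699844, minus strand.

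The transcription factors are next. Isl1, a LIM homeodomain factor needed for the development of D1-type neurons, had a log2 fold change of 0.23 with an SE of 0.12 in the authors' deposited table. This is 17.1% higher in AAV-Cre, with limits of -2.55% to 40.6%. Its unadjusted p of 0.0871 was the smallest of the 7 and ranked 1236 among the 13130 genes, and its adjusted p was 0.919. Ebf1, a helix-loop-helix factor that acts in the differentiation of the same neurons, had a log2 fold change of 0.14 with an SE of 0.16 there, 10.5% higher with limits of -13.0% to 40.4% (adjusted p = 0.939). Isl1, ENSMUSG00000042258.9, is at chromosome 13, 116298281 to 116309689, minus strand, and Ebf1, ENSMUSG00000057098.10, at chromosome 11, 44617317 to 45008091, plus strand.

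Other cells of the region express these factors too. Cholinergic interneurons carry Isl1 as well, and of their 7 markers the 5 measured had a median of -0.01 on the log2 scale, with 2 above 0 and 3 below. Chat (-0.15, SE 0.21) and Lhx8 (0.15, SE 0.38) came first by p in the authors' deposited table. Pericytes and smooth muscle cells carry Ebf1. Of their 11 markers the 10 measured were all above 0, beside 59.1% of all genes. These 10 had a median of 0.13 and 0 at an unadjusted p under 0.05. They were led by Higd1b (0.27, SE 0.13) and Vtn (0.14, SE 0.09) in the authors' deposited table. Levels of these markers per mouse are unknown, and their part in the values of Isl1 and Ebf1 was not tested.

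Sfxn1 encodes a mitochondrial serine transporter and is expressed in many cell types. It had the tightest limits of the 7, with a log2 fold change of 0.01 with an SE of 0.06 in the authors' deposited table, 0.663% higher in AAV-Cre with limits of -7.55% to 9.60% (adjusted p = 0.990). The gene, ENSMUSG00000021474.8, is at chromosome 13, 54071869 to 54108342, plus strand. It is the next annotated gene beside Drd1a: the pair are read in opposite directions, 16163 bases apart, with 0 annotated genes between them in GENCODE M21 and in RefSeq.

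**Figure D2:**
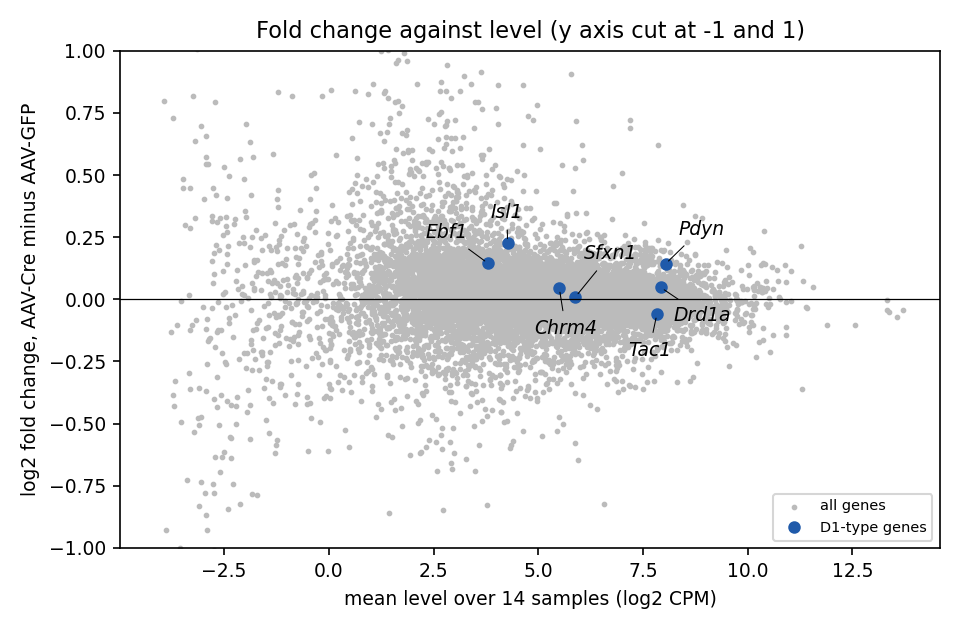
Log2 fold change of AAV-Cre minus AAV-GFP (y axis, cut at -1 and 1, which leaves out 119 genes) against the mean level over the 14 samples in log2 CPM (x axis), with all genes in grey and the D1-type genes in blue. The 7 genes lie within the cloud of genes of like level, with Isl1 highest and Tac1 lowest.

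The members spanned a wide range of levels, given here as CPM (reads scaled to a common library size) per kilobase of exon, from the mean on the log2 scale over all 14 samples. Pdyn stood highest at 91.1, above 97.4% of genes. Tac1 and Drd1a followed at 67.1 and 67.0, and Chrm4 at 31.5, the last over a gene model of 1440 exonic bases. Sfxn1 at 6.02 and Isl1 at 4.86 were near the median of all genes, 6.61, and Ebf1 was lowest at 1.43, above 8.90% of genes. The order of Chrm4 and Sfxn1 turns on length: without division by it they had 45.3 and 59.2 CPM. On both scales Pdyn, Drd1a and Tac1 were the 3 highest members and the transcription factors Isl1 and Ebf1 the 2 lowest. How neighbours in this order compare with the spread between mice cannot be given, since the table holds only means.

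Genes of the D2 class served to check the tissue and to set the D1 values beside their nearest relatives. On the same scale of level, the D2 receptor gene Drd2 stood at 53.1 and the adenosine receptor gene Adora2a at 84.4 CPM per kilobase. Penk, the enkephalin precursor gene, stood at 784. Ppp1r1b, the gene of the dopamine- and cyclic AMP-regulated phosphoprotein found in both classes, stood at 352. Defining markers of both classes were thus present in the libraries, whose labels give the tissue as brain and whose design text names the nucleus accumbens.

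**Figure D3:**
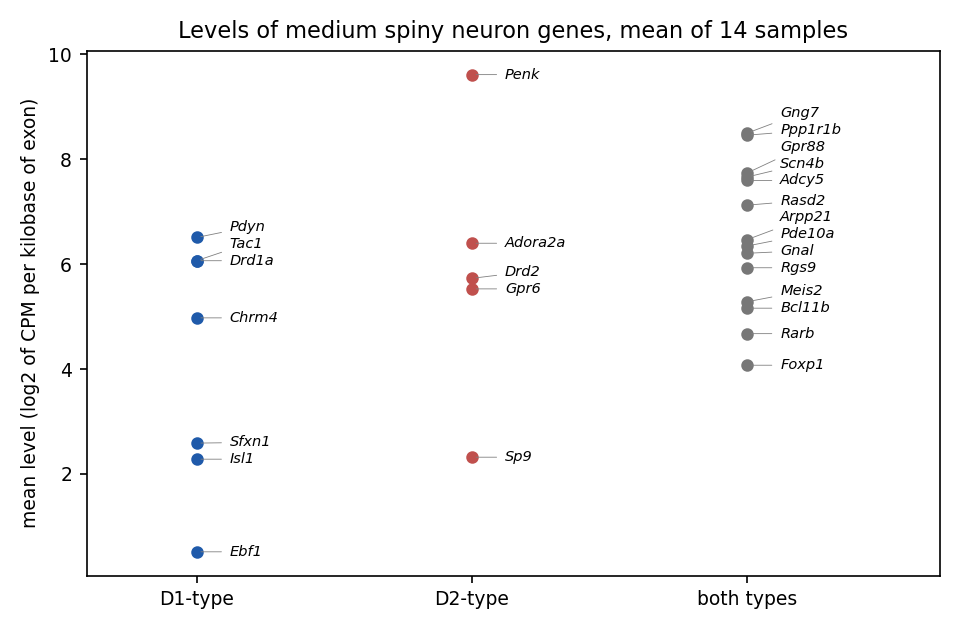
Mean level over the 14 samples (y axis, log2 of CPM per kilobase of exon) for D1-type genes, D2-type genes and genes of both classes, 1 point per gene. Pdyn, Tac1 and Drd1a lie at the height of Drd2, Gpr6 and Adora2a, while Sfxn1, Isl1 and Ebf1 lie lower, between 0.52 and 2.59.

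In fold change, the D2-type genes had a median log2 value of 0.14 over the 5 of 6 that were measured, with all 5 above 0 and 0 at an unadjusted p under 0.05. Sp9 (0.16, SE 0.10) and Adora2a (0.14, SE 0.10) came first by p in the authors' deposited table. Drd2 stood at 0.05 with an SE of 0.12 there, next to the 0.05 of Drd1a. Penk stood at 0.14 with an SE of 0.11, next to the 0.14 of Pdyn. Genes shared by both classes had a median of 0.07 over 14 genes. Of these, 12 were above 0, beside 59.1% of all genes, and again 0 were at an unadjusted p under 0.05. Meis2 (0.09, SE 0.07) and the G protein subunit gene Gng7 (0.14, SE 0.12) led them in the authors' deposited table. Whether the D1 values differ from these could not be tested without values per mouse.

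The errors of the members were wider than is usual at their level. The SE of 6 of the 7 was above the median SE of the 500 genes nearest to each in mean level, with ratios from 0.915 for Sfxn1 to 2.17 for Tac1 and a median of 1.66. Tac1 had an SE larger than 95.8% of its 500 neighbours in level. The D2-type genes had a median ratio of 1.51, with 5 of 5 above 1, and the shared genes 1.78, with 12 of 14 above 1. Wide errors were thus seen in all 3 lists of medium spiny neuron genes, with Sfxn1 an exception among the members.

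Other genes tied to the D1 class did not pass either. Of 4 further genes enriched in these neurons 3 were measured. Zfp521, a zinc finger gene, stood at a log2 fold change of 0.10 with an SE of 0.06 in the authors' deposited table. Slc35d3, a membrane protein gene, stood at 0.01 (SE 0.12) there, and Cntnap3 at -0.06 (SE 0.25). Eya1 was not analysed here.

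The path from the D1 receptor to its targets runs through the G protein subunits Gnal and Gng7, the adenylyl cyclase Adcy5, protein kinase A and Ppp1r1b. Of 24 genes of this path, all measured, 19 were above 0 and 5 below, beside 59.1% of all genes above 0. The median log2 value was 0.03, with 0 at an unadjusted p under 0.05. The kinase gene Mapk3 (0.13, SE 0.06, unadjusted p = 0.0549) and the phosphatase gene Ppp1cc (-0.08, SE 0.06) came first by p in the authors' deposited table. Gnal stood at 0.02 (SE 0.07), Adcy5 at 0.07 (SE 0.11) and Ppp1r1b at 0.14 (SE 0.14) there. Some of these genes, Gnal, Gng7, Adcy5 and Ppp1r1b among them, also stand in the list shared by both classes.

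The receptors that the members' peptides act on, and the genes that supply dopamine and acetylcholine, gave 9 measured of 10. Of these, 2 were above 0, beside 59.1% of all genes, and 7 below, with a median of -0.04. Oprk1, the dynorphin receptor gene, stood at -0.18 (SE 0.13) in the authors' deposited table. Tacr1, the substance P receptor gene, stood at -0.06 (SE 0.10), and Tacr3, another tachykinin receptor gene, at -0.14 (SE 0.24). Genes of acetylcholine supply and breakdown lay between -0.15 and -0.01 in the authors' deposited table: Chat (-0.15, SE 0.21), Ache (-0.04, SE 0.17), Slc18a3 (-0.02, SE 0.30) and Slc5a7 (-0.01, SE 0.21). The dopamine synthesis genes Ddc (0.35, SE 0.17, unadjusted p = 0.0563) and Th (0.23, SE 0.16) were the 2 above 0 there. None passed at an unadjusted p under 0.05. The dopamine transporter gene Slc6a3 was not analysed here.

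Genes of proteins that cut and package neuropeptide precursors had a median log2 value of 0.02 over 9 measured, with 5 above 0, 4 below and 0 at an unadjusted p under 0.05. The carboxypeptidase gene Cpe (0.11, SE 0.07) and the convertase inhibitor gene Pcsk1n (0.12, SE 0.08) came first in the authors' deposited table. Transcription factors of striatal neurons, apart from Isl1 and Ebf1, were above 0 in all 14 measured of 17, beside 59.1% of all genes. Their median was 0.11, with 0 at an unadjusted p under 0.05. This list is not separate from those above. Sp9 also stands among the D2-type genes, and Meis2, Bcl11b, Rarb and Foxp1 among those shared by both classes. Dlx5 (0.20, SE 0.11) and Dlx6 (0.18, SE 0.10), homeobox genes of forebrain GABA neurons, came first in the authors' deposited table. The 3 others, Gsx2, Meis1 and Sp8, were not analysed here.

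**Figure D4:**
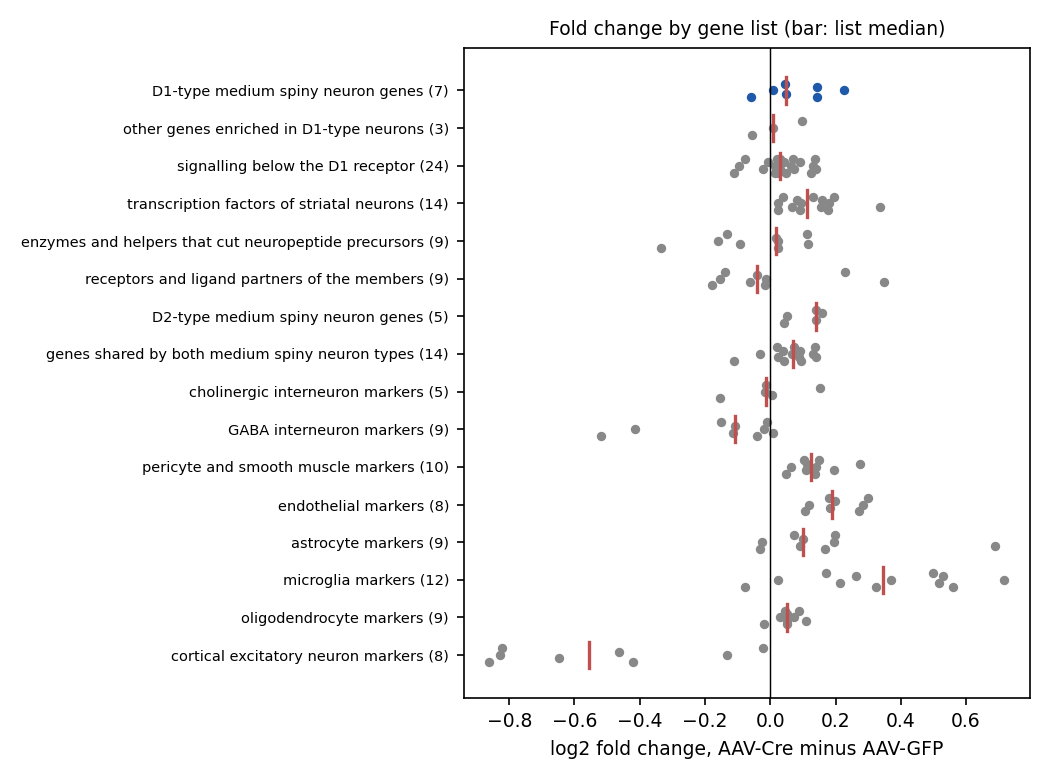
Log2 fold change of AAV-Cre minus AAV-GFP (x axis) for each measured gene (points) of each list (rows, with the number of genes), the D1-type genes in blue and list medians as red bars. The D1-type genes lie between -0.06 and 0.23, while microglia markers reach further above and cortical neuron markers further below.

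Markers of some other cells lay further from 0 than the members. Of all genes, 59.1% were above 0 and 5.15% had an unadjusted p under 0.05. Microglia markers were above 0 in 11 of 12, with a median log2 value of 0.35 and 6 at an unadjusted p under 0.05, led by C1qa (0.72, SE 0.25) and Aif1 (0.50, SE 0.18) in the authors' deposited table. Endothelial markers were above 0 in 8 of 8, with a median of 0.19 and 3 at that p, led by Eng (0.30, SE 0.11) and Cldn5 (0.29, SE 0.12) in the authors' deposited table. Cortical excitatory neuron markers were below 0 in 8 measured of 11, with a median of -0.56, a median SE of 0.68 and 0 at that p, led by Nptx1 (-0.65, SE 0.45) and Fezf2 (-0.42, SE 0.32) in the authors' deposited table. Astrocyte markers had a median of 0.10, with 1 of 9 at that p, and Slc1a3 (0.20, SE 0.08) and Gfap (0.69, SE 0.34) came first there. The medians of GABA interneuron, oligodendrocyte and oligodendrocyte precursor markers were -0.11, 0.05 and 0.04, each list with 0 at that p. Their first genes by p in the authors' deposited table were Kit (-0.11, SE 0.08) and Nos1 (-0.15, SE 0.13), Mal (0.11, SE 0.14) and Cnp (0.09, SE 0.13), and Cspg4 (0.06, SE 0.08) and C1ql1 (0.12, SE 0.22). The part of these cell types in the members' values was not tested.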

How the data were processed

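RNA of 14 mice was measured by sequencing, 7 AAV-Cre and 7 AAV-GFP, each with its own TruSeq mRNA library per the labels' protocols. The submitters' processing notes name TopHat2 2.0.9, Bowtie2 2.1.0, GRCm38 and mm10. No source used here names the counting, normalization, filter or model. The deposited log2 values are, per the file headers, a fold change and a mean level per gene, under column names that limma writes. The deposited score used, per the file headers, is a t, read here as moderated because limma writes such column names. The deposited p-values, per the file headers, are unadjusted and adjusted, the latter equal to Benjamini-Hochberg over 13130 genes within 1e-06. Linear mean levels sum to 991364, so levels are read as CPM. The direction comes from the name of the table. Depth per library is unknown.

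A t distribution with 15.1 degrees of freedom returns the deposited p-values. SE is the fold change over t on the log2 scale, and 95% limits use that distribution. The calculation of the degrees of freedom and of the limits was checked on fold changes simulated from the same kind of distribution. Such a check covers the arithmetic only and cannot tell whether the limits hold for these libraries. No test on samples could be run, and none was run on lists. Stable IDs matched GENCODE M21 (GRCm38) for 13063 genes. Exonic length joins the exons of all transcripts. The ID version is the same for 1 of 7 members, so the authors' gene models may differ. An antisense gene, Gm12158, lies inside Ebf1 and touches no exon of it. Promoters came from RefSeq, in which 7 of 7 members matched with 10 starts.

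The members and lists were chosen with earlier results of these data known. Named genes are all members, every receptor, ligand partner and other D1-enriched gene, and the 2 of smallest p in each other list; examples beyond this were chosen after their values were seen. A further interneuron marker is not reported here. Alternatives were a threshold of 0.1, a mean of at least 1 or 10 CPM, and values minus the median of all genes. Others were values minus their lowess trend with level (fraction 0.3), a median without 3 members and a weighted mean. Fold bounds of 1.2 and 2 were chosen after seeing the data. The main bound of 1.5-fold was not planned beforehand either. Calculations used scipy 1.17.1, pandas 2.3.3 and numpy 2.4.6 in Python 3.11.15, with statsmodels 0.14.6 for lowess and matplotlib 3.10.9 for figures.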

Additional observations from a re-analysis of the deposited data

How the results depend on the processing

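Of 29 values recomputed under an alternative, 26 counted as unchanged. For a count this meant a value within 1.5-fold of the main one. For a median it meant a shift smaller than the median SE of its genes. For the fold change of a single gene it meant the same sign and the same side of an unadjusted p of 0.05. For list medians, subtracting the median of all genes, 0.02, is a shift below that SE, so they could not count as changed. Sfxn1 changed sign, to a log2 fold change of -0.01 minus the median of all genes (-0.0089) and to -0.0043 minus the trend with level, at unadjusted p of 0.879 and 0.941. The number of members above 0 was then 5 in place of 6, against 50% of all genes. The number of members with limits inside the fold bound was 1 at 1.2-fold, against 58.2% of all genes, and 7 at 2-fold. Minus the median of all genes, 17 of the 24 D1 signalling genes and 4 of the 9 peptide processing genes were above 0. Minus the trend with level these counts were 19 and 5, as under the authors' scaling. The D1 signalling gene Mapk3 then had an unadjusted p of 0.0485, in place of 0.0549. Of the 3 other D1-enriched genes measured, 1 was above 0 under either scaling, in place of 2. Counts of the D2-type, shared and transcription factor lists did not change under either scaling. Those above 0 of cholinergic, GABA interneuron and oligodendrocyte precursor markers became 1, 0 and 4 under either, in place of 2, 1 and 5. Of the 3 endothelial markers at an unadjusted p under 0.05, Cdh5 was at 0.0585 minus the median of all genes. Minus the trend with level, Cdh5 was at 0.0734 and Cldn5 at 0.0513. The count past an adjusted threshold of 0.1 was 0, as it was among the 12697 genes of 1 CPM or more and the 10182 of 10 CPM or more, where the smallest adjusted p of a member was 0.928 and 0.968. The median of the members ran from 0.03 without Isl1, Ebf1 and Chrm4 to 0.05 for values minus the trend with level. Their weighted mean was 0.06. No paired analysis was possible because the table holds no value per mouse and the labels give no shared replicate numbers. For the same reason no mouse could be left out.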

Other observations

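The gene families of the members, listed in full after the table had been seen, gave no member at an unadjusted p under 0.05. Of the dopamine receptor genes, Drd3 stood at a log2 fold change of -0.06 (SE 0.19) in the authors' deposited table, and Drd4 and Drd5 were not analysed here. Of the muscarinic receptor genes, Chrm1 stood at 0.08 (SE 0.08), Chrm2 at -0.38 (SE 0.34) and Chrm3 at -0.38 (SE 0.46) in the authors' deposited table. Chrm4 had 31.5 CPM per kilobase of exon and Chrm1 26.9, while Chrm2 and Chrm3 had 1.75 and 1.71. The first 2 are not ranked here: the Chrm4 model holds only 1440 exonic bases and starts downstream of the RefSeq start, and without division by length Chrm1 had 174 CPM and Chrm4 45.3.

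Of the other sideroflexin genes, Sfxn3 (-0.06, SE 0.06), Sfxn5 (0.05, SE 0.09), Sfxn4 (-0.03, SE 0.10) and Sfxn2 (-0.003, SE 0.12) lay around 0 like Sfxn1 in the authors' deposited table. Per kilobase of exon Sfxn3 had 44.1 CPM, Sfxn5 15.9 and Sfxn1 6.02. Without division by length Sfxn5 stood above Sfxn3, at 153 and 137 CPM. Among LIM homeodomain genes, 4 of 12 were measured. Lhx8, a factor of cholinergic interneurons, stood at 0.15 (SE 0.38), Lhx6 at 0.01 (SE 0.21) and Lhx2 at -0.04 (SE 0.13) in the authors' deposited table. Ebf4 stood at -0.11 (SE 0.29) there. Of the peptide precursor genes, Tac2 (0.31, SE 0.45) and Pomc (0.29, SE 0.53) were sparse, at 3.19 and 1.65 CPM per kilobase.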
